A study of Mus musculus with 26 samples.

Results

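The genes described here are 35 markers of microglia and macrophages, followed through a mouse series on medulloblastoma, a tumor of the cerebellum. The genes were listed by name, with earlier results of these data known. Measured values were used directly only to choose probe sets: where a gene had several, the one with the highest mean over all 26 arrays was kept. Of the 35 genes, 34 were measured, among 17097 genes in all. Siglech, a lectin of microglia and plasmacytoid dendritic cells, was not analysed here. The 4 measured markers of resident microglia (P2ry12, Tmem119, Gpr34, Cx3cr1) are kept apart from 5 markers of macrophages (Lyz2, Mrc1, Cd163, Clec10a, Msr1), and the other 25 genes are shared by both kinds of cell.

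All samples carried Trp53-/-, Cdkn2c-/- cells of strain C57BL/6, and RNA was hybridised to Affymetrix HT MG-430 PM arrays. The tumors and the Group3 neurospheres had the genotype Trp53-/-, Cdkn2c-/- Myc, with Myc added, and the labels call both medulloblastoma. The groups were tumors given pemetrexed plus gemcitabine (3 arrays), gemcitabine (3) or pemetrexed (2), secondary tumors (3), untreated Group3 tumors (5), Group3 neurospheres (7) and neurospheres without Myc (3), titled Trp53 neurospheres and labelled granule neural progenitors, which are called Trp53 Cdkn2c neurospheres below after their genotype. The design text places the Trp53-/-, Cdkn2c-/- neurospheres at postnatal day 7. Pemetrexed is an antifolate and gemcitabine a cytidine analogue, and both are chemotherapy drugs. Doses, treatment times, the host of the tumors, how Myc was added, what made a tumor secondary and which animal or culture each array stands for are not given in the labels, so p-values here measure only the spread between these arrays. Titles carry a code, dka or mmm, whose meaning is not stated. Under dka stand all secondary tumors, all Trp53 Cdkn2c neurospheres, 3 untreated tumors and 3 Group3 neurospheres, and under mmm stand all drug-treated tumors, 2 untreated tumors and 4 Group3 neurospheres. Comparisons were made within a code.

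Microglia are the resident macrophages of the brain. They arise from yolk sac precursors, depend on signals through the CSF1 receptor and are recognised by surface molecules such as the purine receptor P2RY12 and TMEM119, which other macrophages largely lack. Macrophages that enter from blood monocytes, and those at the borders of the brain, share with microglia the complement C1q genes, the adaptor TYROBP, Fc receptors and lysosomal enzymes, while lectins and scavenger receptors such as MRC1, CLEC10A and MSR1 mark other macrophage states. The transcription factor PU.1, encoded by Spi1, directs many of these genes in both kinds of cell.

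Values are log2 intensities, normalised by the submitters, and each probe set is compared only with itself across arrays. Array medians ran from 4.65 to 4.82. The dka arrays and Group3 neurosphere replicate 7 ran from about 2.56 to 13.9, while the other mmm arrays reached from -0.41 to 16.1. The mean of Group3 neurospheres 4 to 6 (mmm) differed from the mean of the dka Group3 neurospheres with an SD of 0.132 over probe sets. Single dka neurospheres differed from each other with SDs of 0.452 to 0.528 and neurospheres 4 to 6 with SDs of 0.62 to 0.911. Averaging arrays itself lowers such an SD, and its share in the gap was not tested. Neurosphere 7 differed from the dka neurosphere mean with an SD of 0.564, and the mean of mmm tumors from that of dka tumors with 0.867. Whether values were adjusted between codes is not stated, and levels were therefore not tested directly across codes. Where levels of both codes stand side by side below, they are descriptive only. Whether the wider range of most mmm arrays also widened the differences and folds within mmm was not tested. Of the labelled cell types, the Trp53 Cdkn2c neurospheres carried the granule progenitor genes Atoh1 at 9.53, 9.01 and 9.998 and Barhl1 at 9.77, 9.75 and 9.48. The 7 Group3 neurospheres had Atoh1 between 3.32 and 5.07. Cdkn2c, deleted in all groups, ran from 3.28 to 4.80 over all arrays, but was not level over groups. Within mmm it ran from 3.39 to 3.65 in Group3 neurospheres and from 4.05 to 4.22 in untreated tumors. Within dka it ran from 3.39 to 3.55 in Group3 neurospheres, 3.47 to 3.76 in untreated tumors and 3.91 to 4.03 in secondary tumors. The source of these differences was not tested. Myc ran from 7.76 to 8.28 in the dka Group3 neurospheres, against 8.09 to 9.06 in Trp53 Cdkn2c neurospheres, and whether its probe set covers the added Myc is not given, so that Myc does not check the labels.

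Promoter sequence was available for 23 of the 35 genes from RefSeq (build GRCm38.p6). In the 250 bases before the start, 14 of these 23 (60.9%) held GAGGAA, the purine core of the sites that PU.1 binds, on either strand, against 25.9% of 27025 genes with a window. The longer form GAGGAAGT was held by 1 of the 23 (4.35%), C1qc, against 2.79% of all genes. The windows below are examples of genes with and without the short motif, and do not follow the size of change. Ly86 and Mpeg1, with large changes below, also lack it and are not shown. C1qb (chr4:136886201-136886450, minus strand), C1qc (chr4:136892915-136893164, minus strand), Ctss (chr3:95526536-95526785, plus strand) and Trem2 (chr17:48346151-48346400, plus strand) hold the short motif, and Lyz2 (chr10:117282273-117282522, minus strand) and P2ry12 (chr3:59262986-59263235, minus strand) do not. Each is read 5′ to 3′ on the gene's own strand, and capitals mark GAGGAA or its reverse complement TTCCTC, extended in C1qc to the reverse complement of the longer form.
C1qb: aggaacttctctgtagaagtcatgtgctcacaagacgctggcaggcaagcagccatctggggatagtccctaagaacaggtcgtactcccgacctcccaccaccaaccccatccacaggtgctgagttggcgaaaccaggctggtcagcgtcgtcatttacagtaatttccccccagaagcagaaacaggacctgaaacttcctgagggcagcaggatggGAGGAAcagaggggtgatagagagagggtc
C1qc: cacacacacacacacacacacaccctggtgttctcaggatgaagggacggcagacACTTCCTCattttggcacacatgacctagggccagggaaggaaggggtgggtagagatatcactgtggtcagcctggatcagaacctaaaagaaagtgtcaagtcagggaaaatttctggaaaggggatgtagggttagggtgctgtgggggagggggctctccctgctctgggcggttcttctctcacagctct
Ctss: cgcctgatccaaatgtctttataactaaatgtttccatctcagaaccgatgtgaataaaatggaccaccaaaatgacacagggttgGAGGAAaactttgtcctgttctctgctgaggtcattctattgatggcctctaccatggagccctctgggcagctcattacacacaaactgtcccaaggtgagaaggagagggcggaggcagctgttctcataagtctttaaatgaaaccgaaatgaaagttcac
Trem2: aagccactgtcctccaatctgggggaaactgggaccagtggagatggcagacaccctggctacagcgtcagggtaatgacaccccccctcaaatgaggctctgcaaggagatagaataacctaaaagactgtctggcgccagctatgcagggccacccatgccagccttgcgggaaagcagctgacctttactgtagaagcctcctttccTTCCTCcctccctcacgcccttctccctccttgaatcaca
Lyz2: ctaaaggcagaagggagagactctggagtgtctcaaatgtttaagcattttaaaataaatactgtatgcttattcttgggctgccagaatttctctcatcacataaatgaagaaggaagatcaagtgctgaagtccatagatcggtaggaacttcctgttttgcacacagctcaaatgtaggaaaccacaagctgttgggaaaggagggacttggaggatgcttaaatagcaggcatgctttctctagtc
P2ry12: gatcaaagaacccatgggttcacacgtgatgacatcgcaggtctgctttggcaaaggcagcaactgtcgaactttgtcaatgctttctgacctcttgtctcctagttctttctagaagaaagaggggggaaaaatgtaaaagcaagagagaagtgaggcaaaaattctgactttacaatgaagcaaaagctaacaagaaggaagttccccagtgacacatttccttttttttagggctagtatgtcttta
The motif stood 30 bases before the start in C1qb, 193 in C1qc, 164 in Ctss and 40 in Trem2. These are matches of letters, and binding was not measured.

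Levels were lowest in Group3 neurospheres. In Group3 neurospheres, 32 of the 34 genes averaged below the median of the array medians under either code, and only 2 to 6 genes per array exceeded that array's own median. In Trp53 Cdkn2c neurospheres 19 to 22 genes did so, in untreated dka tumors 24 or 25, in secondary tumors 22 to 29, in untreated mmm tumors 31 on each array, and in drug-treated tumors 27 to 31. Spi1, the gene of PU.1, and Cd163, a haemoglobin scavenger receptor of macrophages, exceeded the array median on 0 of 26 arrays, so that a low level of either is not separable from background. Laptm5, a lysosomal protein of blood cells, and Cd68, a lysosomal glycoprotein of phagocytes, exceeded it on all 26, Group3 neurospheres included.

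**Figure D1:**
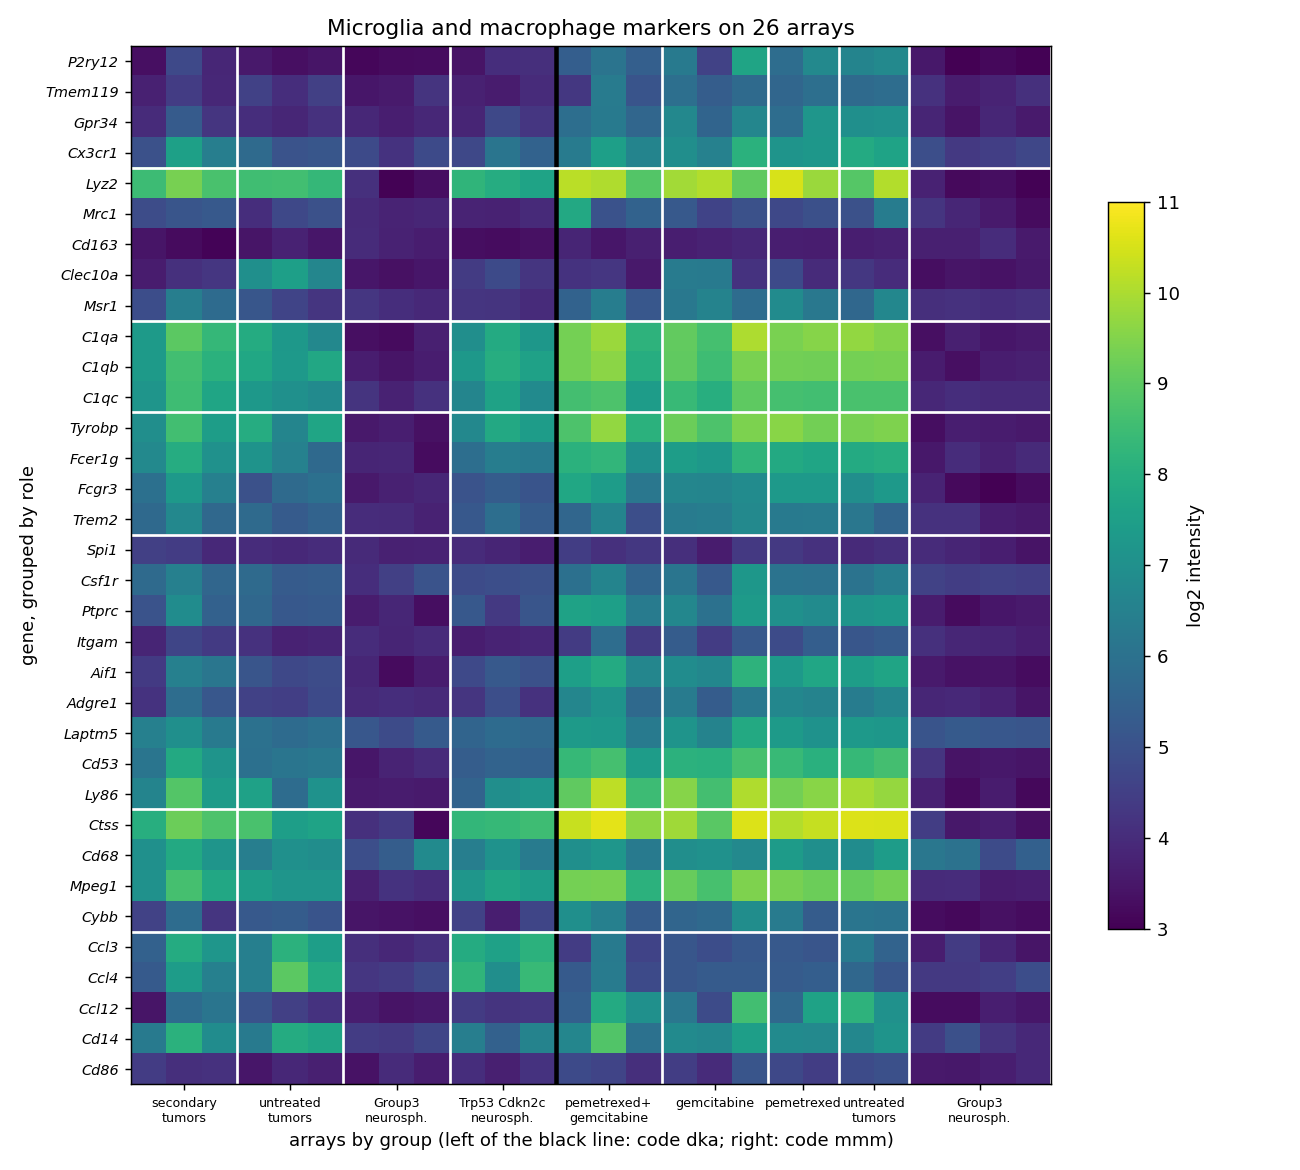
Log2 intensity of the 34 measured genes (rows, grouped by role in the order resident microglia, macrophage, complement C1q, ITAM adaptors and their receptors, myeloid lineage and shared surface, phagocyte and lysosome, inflammatory activation and chemokines) on the 26 arrays (columns, by group). Group3 neurospheres are dark in nearly every row, Trp53 Cdkn2c neurospheres and dka tumors are bright in the shared genes but dark in the top 3 rows, and mmm tumors are bright in both.

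The comparison of the neurospheres sets Group3 neurospheres, with added Myc, against Trp53 Cdkn2c neurospheres, without it. The labels call the former medulloblastoma and the latter granule neural progenitors, so added Myc and cell type cannot be told apart. Shared myeloid genes were far lower in Group3 neurospheres, and the resident microglia markers did not pass the test. By limma's test, at a false discovery rate of 0.05 (Benjamini-Hochberg over 17097 genes), 17 of the 34 markers fell, where 9.22% of all genes fell, and 1 rose, where 13.4% of all genes rose. The median log2 difference of the 34 was -1.16, beside 0.08 over all genes. In these bulk samples, fewer cells of a type and less RNA per cell cannot be told apart.

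All 3 complement C1q genes, which encode the chains of the protein that opens the classical complement pathway and lie within 1 stretch of chromosome 4, fell. C1qa (chr4:136895916-136898844) stood at 3.33, 3.22 and 3.70 in Group3 neurospheres, against 6.96, 7.91 and 7.22 in Trp53 Cdkn2c neurospheres. C1qb (chr4:136880126-136886200) stood at 3.64, 3.44 and 3.63 in Group3 neurospheres, against 7.27, 7.98 and 7.57. The groups did not overlap for either gene, and the differences were -3.94 for C1qa (moderated standard error 0.42, adjusted p = 1.66e-06) and -4.03 for C1qb (0.34, adjusted p = 8.2e-08). C1qc fell by 2.99.

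All 4 genes of the ITAM signalling group fell as well. Tyrobp, the adaptor of TREM2 and other activating receptors, stood at 3.55, 3.68 and 3.36 in Group3 neurospheres, against 6.73, 7.84 and 7.43 in Trp53 Cdkn2c neurospheres, a difference of -3.80. Fcer1g, the shared Fc receptor gamma chain, fell by 2.54, the lipid-sensing receptor Trem2 by 1.55 and the IgG receptor Fcgr3 by 1.44. Of 4 phagocyte genes 2 fell. Ctss (chr3:95526786-95556405), the lysosomal protease cathepsin S, stood at 4.11, 4.37 and 3.13 in Group3 neurospheres, against 8.31, 8.36 and 8.51, a 23.0-fold lower intensity (adjusted p = 3.3e-07). Mpeg1, a pore-forming protein of macrophages, fell by 3.48. Cd68 (-0.91, adjusted p = 0.125) and Cybb, the catalytic subunit of the phagocyte oxidase (-0.91, adjusted p = 0.135), did not pass. Without Group3 neurosphere replicate 3, whose Cd68 level of 6.82 lay within the range of the Trp53 Cdkn2c neurospheres (6.43, 7.09 and 6.34), Cd68 passed at -1.47.

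Of 9 genes of the myeloid lineage and its shared surface proteins, 4 fell. These were Ly86, a partner of the toll-like receptor RP105 (-2.97), the tetraspanin Cd53 (-1.71), Aif1, the actin-bundling protein known as IBA1 (-1.42), and Ptprc, the leukocyte phosphatase CD45 (-1.29). The Ptprc call was lost in 5 of 11 alternatives and the Aif1 call in 2. The others, with differences from -0.61 to 0.16, were Laptm5, the microglial growth factor receptor gene Csf1r, the integrin chain Itgam, the adhesion receptor Adgre1, a widely used macrophage marker, and Spi1. Of 5 activation genes, 3 fell. The chemokine Ccl3 stood at 4.08, 3.88 and 4.12 in Group3 neurospheres, against 7.91, 7.59 and 8.15 in Trp53 Cdkn2c neurospheres (difference -3.86, adjusted p = 2.3e-05). Its neighbour Ccl4 fell by 3.40 and Cd14, the lipopolysaccharide co-receptor, by 1.70, a call lost in 6 of 11 alternatives. The annotated spans of Ccl3 (chr11:83647843-83649378) and Ccl4 (chr11:83648624-83664683) overlap. The monocyte chemokine Ccl12 (-0.76) and the costimulator Cd86 (-0.31) did not pass.

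The macrophage markers parted from each other. Lyz2, lysozyme of phagocytes, stood at 4.12, 3.05 and 3.30 in Group3 neurospheres, against 8.22, 7.96 and 7.64 in Trp53 Cdkn2c neurospheres, a difference of -4.45 (adjusted p = 1.23e-07). Cd163 was the 1 gene that rose, by 0.51, with every value under the array median, and it no longer passed without Group3 neurosphere replicate 1. Clec10a (-1.02, adjusted p = 0.0744), the mannose receptor Mrc1 (0.04) and the scavenger receptor Msr1 (-0.06) did not pass. Among resident microglia markers, P2ry12 stood at 3.15, 3.22 and 3.27 in Group3 neurospheres, against 3.43, 4.06 and 4.06. Cx3cr1, the fractalkine receptor, stood at 4.79, 4.16 and 4.79, against 4.75, 6.12 and 5.52. The differences of the 4 resident markers ran from -0.88 for Cx3cr1 to -0.02 for Tmem119, and 0 of the 4 passed. Over all 34 genes the unadjusted p was under 0.05 for 22.

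Markers of other cell types were read in the same comparison, in which 9.22% of all genes fell. Of 3 red blood cell markers 1 fell, the haemoglobin gene Hba-a1 (-4.80). Of 9 endothelial markers 1 fell, a share near that over all genes, with a list mean of 3.95 to 4.02 in Group3 neurospheres, against 4.51 to 5.01 in Trp53 Cdkn2c neurospheres. Of 5 granule neuron and progenitor markers 4 fell, with a list mean of 3.73 to 4.35, against 9.24 to 9.45. Lymphocyte markers stood at background, with 0 of 9 changed and a list mean of 3.82 to 3.94, against 3.75 to 3.81. The part of these cell types in the result was not tested.

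Untreated dka tumors were then set against Trp53 Cdkn2c neurospheres. Of the 34 markers 1 rose, where 9.15% of all genes rose, and 0 fell, where 6.45% fell (15.6% in either direction), and 2 of the 34 had an unadjusted p under 0.05. The C1q genes differed by -0.07 to 0.02 and Tyrobp by 0.10 (95% interval half-widths had a median of 0.783). A difference that misses the threshold does not show equal levels. The 1 gene that passed was Clec10a, described below. The 4 resident markers differed by -0.41 to 0.59, and 0 of them passed.

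**Figure D2:**
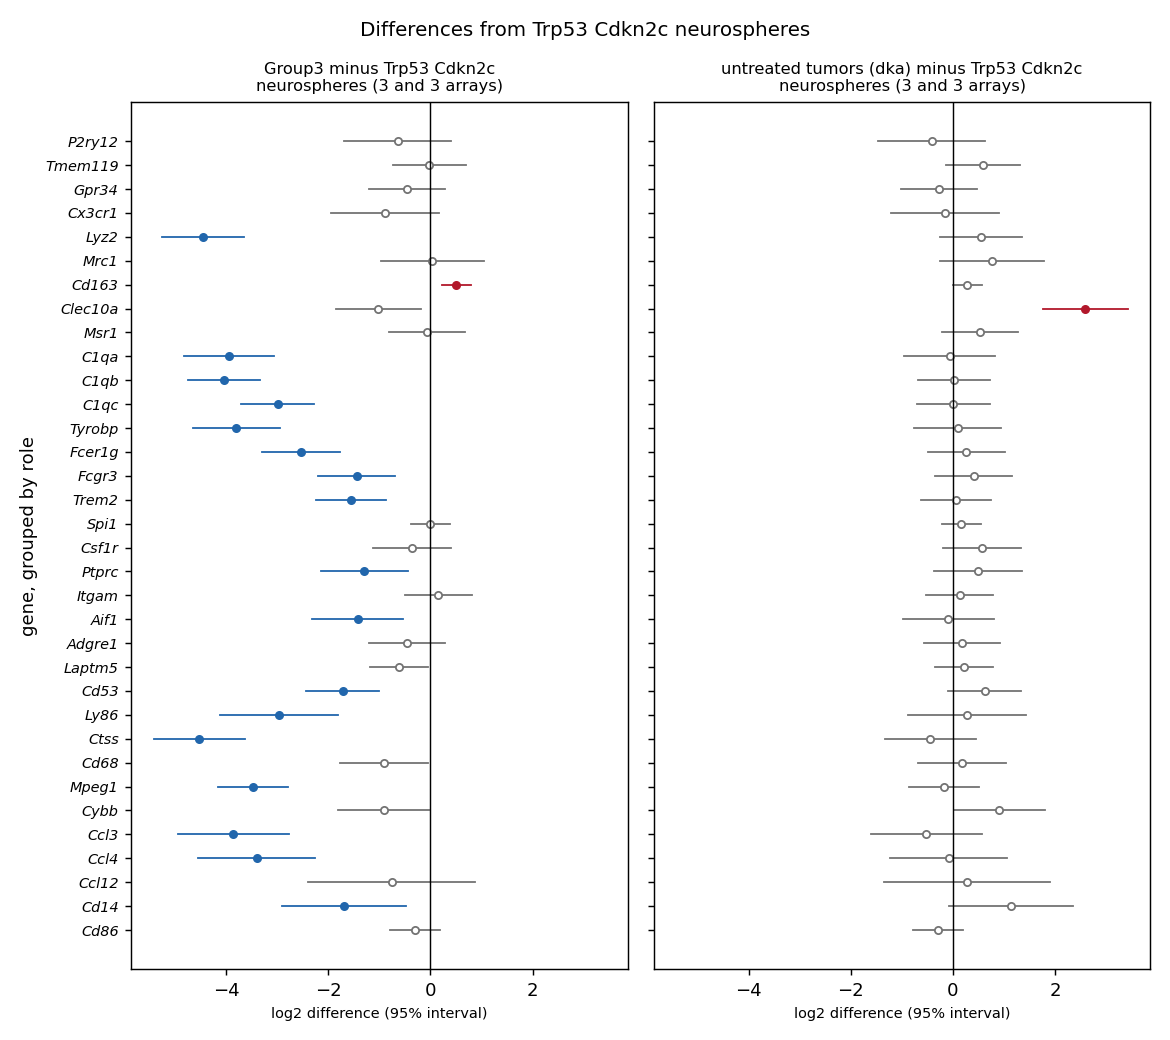
Log2 differences from Trp53 Cdkn2c neurospheres for each gene (points, with 95% intervals as lines), in Group3 neurospheres (left) and in untreated dka tumors (right). Filled red or blue points passed the test as higher or lower and open grey points did not. On the left 17 genes are lower, and on the right only Clec10a stands apart.

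Tumors against Group3 neurospheres asks what the tumor in the animal holds that the cultured cells of the same genotype do not. In the dka arrays 20 of 34 markers rose, where 8.81% of all genes rose, and 0 fell, where 9.74% of all genes fell. The median difference was 1.70, beside 0.00 over all genes, and 22 of the 34 had an unadjusted p under 0.05. This comparison uses the same Group3 neurospheres as the one before, so the 2 lists of changes are not independent. Complement and ITAM genes rose without exception (3 of 3 and 4 of 4). C1qa stood at 7.91, 7.26 and 6.72 in tumors, against 3.33, 3.22 and 3.70 in Group3 neurospheres, a difference of 3.88. Tyrobp stood at 7.95, 6.63 and 7.71, against 3.55, 3.68 and 3.36, a difference of 3.90. No tumor array came near the neurosphere values for either gene.

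Of the phagocyte genes 3 of 4 rose, with Ctss at 8.72, 7.49 and 7.65 in tumors, against 4.11, 4.37 and 3.13 in Group3 neurospheres (difference 4.08, moderated standard error 0.43, adjusted p = 3.23e-06). Of the lineage genes 5 of 9 rose (Ly86 3.25, Cd53 2.33, Ptprc 1.78, Aif1 1.32 and Laptm5 0.82). The Laptm5 call was lost in 8 of 11 alternatives, on leaving out any single array among them, and the Aif1 call in 6 of 11. Csf1r (0.93, adjusted p = 0.083), Adgre1 (0.62), Itgam (-0.03) and Spi1 (0.16) did not pass. Among the activation genes Ccl3 (3.34), Ccl4 (3.32) and Cd14 (2.83) rose. Of the macrophage markers 2 of 5 rose, Lyz2 and Clec10a, and of the resident markers 0 of 4. Lyz2 stood at 8.56, 8.57 and 8.34 in tumors, against 4.12, 3.05 and 3.30, a 32.0-fold difference. P2ry12 stood at 3.54, 3.32 and 3.45 in tumors, against 3.15, 3.22 and 3.27, a difference of 0.22 (adjusted p = 0.826). The other 3 resident markers differed by 0.19 (Gpr34, a lysophosphatidylserine receptor), 0.61 (Tmem119) and 0.73 (Cx3cr1), and 0 of the 4 passed.

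Secondary tumors were set against the same Group3 neurospheres. Here 24 markers rose, where 10.2% of all genes rose, and 1 fell (Cd163, -0.54), where 14.5% of all genes fell. The median difference was 1.83, beside -0.01 over all genes. Lyz2 stood at 8.47, 9.36 and 8.71 in secondary tumors, against 4.12, 3.05 and 3.30 (difference 5.36), and C1qa at 7.37, 8.99 and 8.32, against 3.33, 3.22 and 3.70 (4.81). Msr1 passed at 1.62, as did Csf1r (1.42), Adgre1 (1.09) and Cd68 (1.64). The Adgre1 call was lost in 5 of 11 alternatives, and the difference was 0.70 without secondary replicate 2. Without that array Ccl4 and Cybb did not pass either. Of the resident markers only Cx3cr1 passed, with 4.97, 7.55 and 6.41 in secondary tumors, against 4.79, 4.16 and 4.79 (difference 1.73, adjusted p = 0.0156). Without secondary replicate 2 the Cx3cr1 difference was 1.11 and did not pass, nor did it without Group3 neurosphere replicate 2 (1.52). P2ry12 stood at 3.32, 4.77 and 3.87, against 3.15, 3.22 and 3.27, and did not pass (0.78, adjusted p = 0.295). The secondary arrays were uneven: replicate 2 had the highest value of the 3 for 28 of the 34 genes and replicate 1 the lowest for 27.

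Untreated mmm tumors differed from Group3 neurospheres in nearly every marker. Of the 34, 30 rose, where 10.6% of all genes rose, and 0 fell, where 11.5% of all genes fell. The median difference was 2.98, beside -0.05 over all genes. Here 4 of 4 resident markers rose. P2ry12 stood at 6.61 and 6.76 in tumors, against 3.51, 2.95, 3.17 and 3.03 in Group3 neurospheres, a difference of 3.52 (moderated standard error 0.53, adjusted p = 0.00012). Gpr34 stood at 6.98 and 7.05, against 3.84, 3.41, 3.87 and 3.58, a difference of 3.34. Cx3cr1 rose by 3.16 and Tmem119 by 1.91, and neither gene's groups overlapped.

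The shared genes rose too. Ctss stood at 10.57 and 10.56 in mmm tumors, against 4.46, 3.51, 3.67 and 3.32 in Group3 neurospheres, a 114-fold difference (log2 6.83, adjusted p = 1.07e-08). C1qa rose by 6.08, C1qb by 5.79 and C1qc by 4.76, Tyrobp by 5.88, Fcer1g by 4.13 and Fcgr3 by 3.88. Ly86 rose by 6.41, Cd53 by 4.82 and Aif1 by 4.15. Of the macrophage markers Lyz2 (6.15), Msr1 (2.09) and Mrc1 (1.94) rose, and Clec10a (0.75, adjusted p = 0.228) and Cd163 (-0.05) did not pass. The remaining genes that did not pass were Spi1 (0.30) and Ccl4 (0.89, adjusted p = 0.302). Ccl12 rose by 4.18, with 8.16 and 7.04 in tumors, against 3.27, 3.26, 3.66 and 3.49. With tumor replicate 5 left out 25 markers rose, the single remaining tumor array being assumed to vary like the other groups. The 5 lost calls were Mrc1, whose difference was then 1.26, Cd68, Csf1r, Itgam and Cd14. Mrc1 also missed the threshold in the fit to the mmm arrays alone. Without replicate 4, Cd68 and Ccl3 did not pass.

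**Figure D3:**
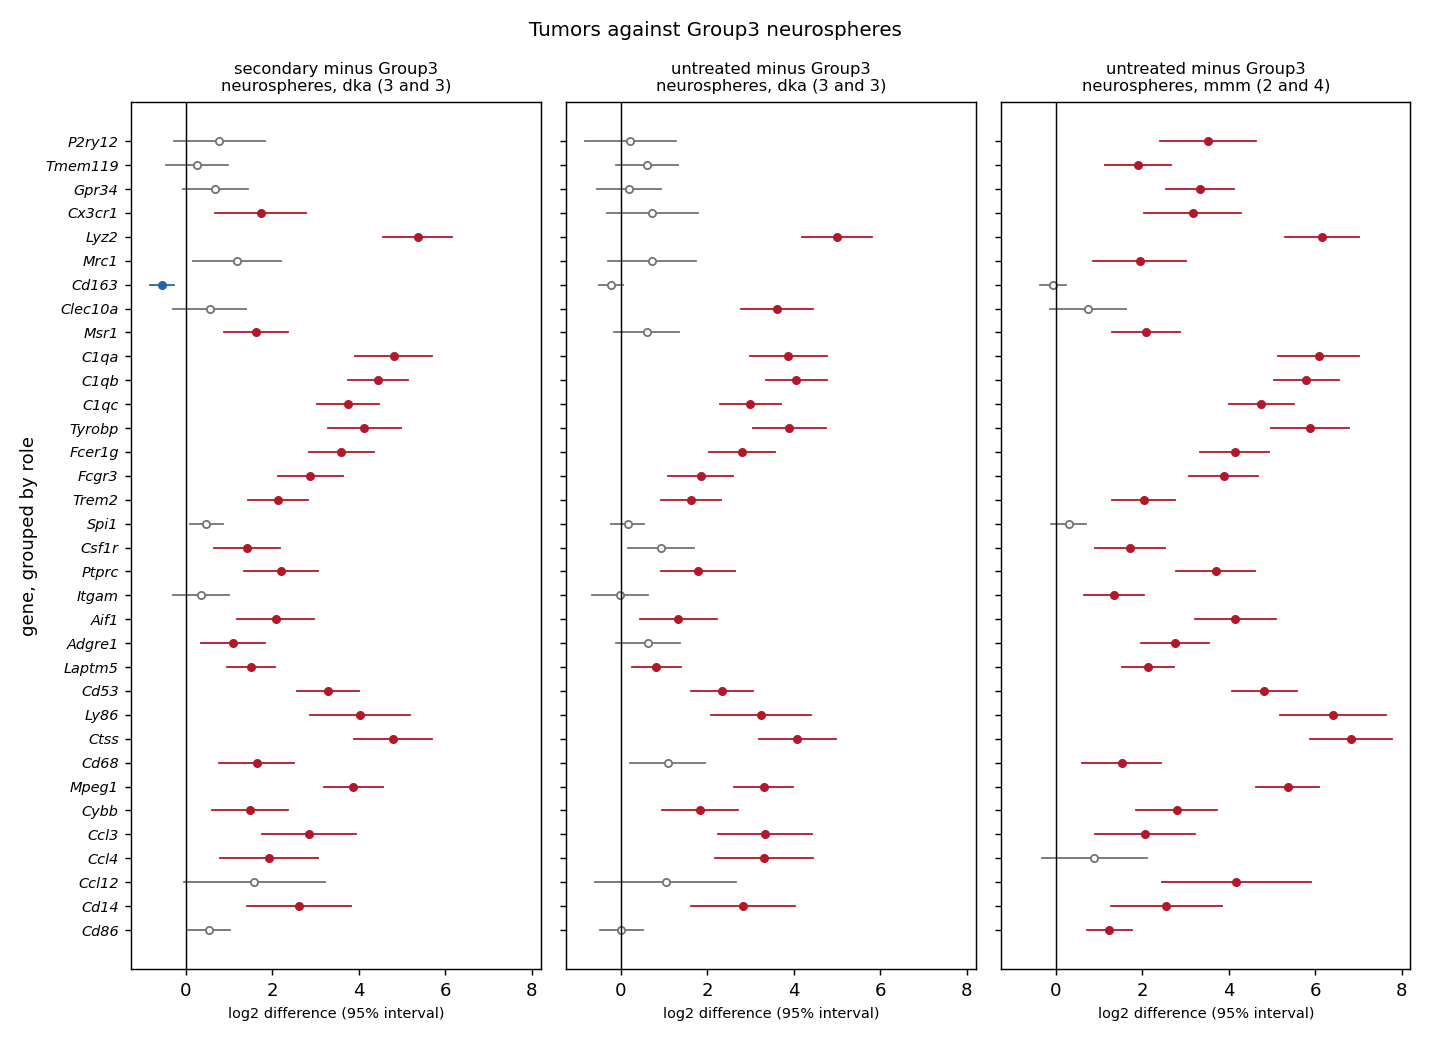
Log2 differences from Group3 neurospheres of the same code (points, with 95% intervals) in secondary tumors (left), untreated dka tumors (middle) and untreated mmm tumors (right). Filled points passed the test, in red where higher and blue where lower. The first 4 rows, resident microglia, pass together only on the right, while Clec10a passes only in the middle.

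Whether the tumor difference itself depended on the code was tested by taking the dka difference from the mmm difference. It was larger under mmm for 17 markers, where 4.36% of all genes were larger, and smaller for 1, where 4.8% were smaller (9.17% in either direction). The median was 1.43, beside -0.03 over all genes. P2ry12 differed by 3.29 (moderated standard error 0.73, adjusted p = 0.0109), Gpr34 by 3.15 (0.52, adjusted p = 0.00223) and Cx3cr1 by 2.43 (0.73, adjusted p = 0.0441), while Tmem119 did not pass (1.30, adjusted p = 0.106). The Cx3cr1 call was lost in 10 of 16 alternatives, the Laptm5 call in 13 and the Ptprc call in 14. Among shared genes Ly86 (3.17), Aif1 (2.83), Ctss (2.75) and Cd53 (2.49) differed, and Trem2 (0.41), Cd68 (0.44) and Cd14 (-0.27) did not pass. Clec10a was the gene that went the other way, by -2.86 (adjusted p = 0.00744). The count of 17 rested on few arrays: it was 2 without untreated tumor replicate 5, 4 without replicate 4, 9 without replicate 2, and 11, 10, 9 and 11 without Group3 neurosphere replicates 1, 2, 3 and 7.

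Markers of normal brain tissue were read on the same arrays. The mean of 5 oligodendrocyte markers (Mbp, Mog, Mag, Cnp, Mobp) was 9.12 and 7.43 in mmm tumors 4 and 5, and 5.51, 4.22 and 8.64 in dka tumors 1, 2 and 3. The mean of 6 astrocyte markers was 8.59 and 8.22 in the mmm tumors, and 6.98, 4.38 and 6.86 in the dka tumors. Of these 11 genes, 0 passed the test of the difference between codes, where 9.17% of all genes passed, so 0 is not far from that share. Of 9 endothelial markers 8 rose in dka tumors and 7 in mmm tumors against Group3 neurospheres, where 8.81% and 10.6% of all genes rose. Between codes 0 of the 9 differed. Of 3 red blood cell markers 1, Hba-a1, differed between codes (4.38), with a list mean of 6.82 to 6.91 in mmm tumors and 4.96 to 5.52 in dka tumors. The part of these cell types in the result was not tested. The code, with the wider range of values on most mmm arrays, the tissue taken and the tumors themselves cannot be told apart.

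Among the macrophage markers Clec10a stood apart in the untreated dka tumors. Clec10a (chr11:70166623-70170836), a galactose-binding lectin also called MGL1 in mouse, stood at 3.61, 4.11 and 4.27 in secondary tumors, against 6.998, 7.51 and 6.67 in untreated dka tumors. The ranges were far apart, and the difference of -3.06 (moderated standard error 0.40, adjusted p = 0.000992) was an 8.35-fold lower intensity. It was the 1 marker of 34 that changed between secondary and untreated tumors, where 0.275% of all genes fell, and 0 markers rose, where 0.263% rose (0.538% in either direction). The unadjusted p was under 0.05 for 11 of the 34. Levels in the other dka groups were 3.48, 3.36 and 3.50 in Group3 neurospheres and 4.38, 4.78 and 4.23 in Trp53 Cdkn2c neurospheres. Untreated dka tumors therefore lay above Trp53 Cdkn2c neurospheres by 2.59 (adjusted p = 0.000171) and above Group3 neurospheres by 3.61. In untreated mmm tumors it stood at 4.30 and 4.01.

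Mgl2 (chr11:70130125-70137542), a related galactose-binding lectin whose gene lies near Clec10a, did not change between secondary and untreated tumors by the test. It stood at 4.08, 9.36 and 8.69 in secondary tumors, against 8.96, 8.85 and 8.49 in untreated dka tumors. Only secondary replicate 1 was low. The values were 7.88, 7.98 and 7.91 in Trp53 Cdkn2c neurospheres, 3.33, 3.77 and 3.20 in Group3 neurospheres and 8.37 and 8.41 in untreated mmm tumors. For the other 33 markers the secondary minus untreated differences ran from -1.39 (Ccl4) to 1.03 (Msr1), 27 of the 34 were above 0 and the median was 0.51, beside -0.05 over all genes. Without secondary replicate 1, Cd53 passed as higher at 1.41.

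**Figure D4:**
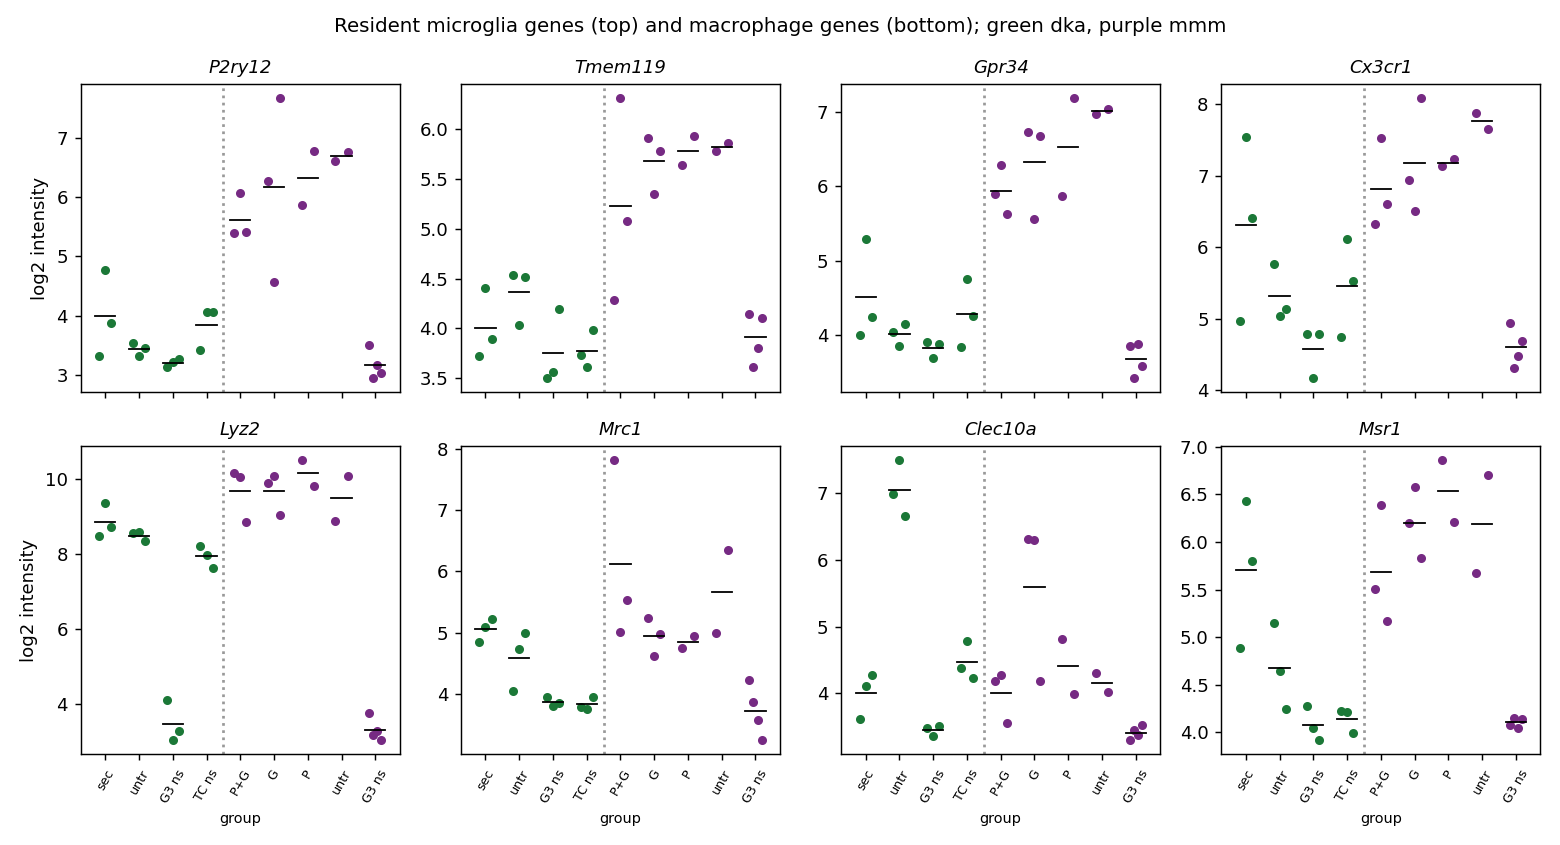
Log2 intensity on each array (points) with the group mean (bars) for the 4 resident microglia genes (top) and 4 macrophage genes (bottom). From left to right stand secondary tumors, untreated tumors, Group3 and Trp53 Cdkn2c neurospheres (dka, green), then tumors given both drugs, gemcitabine, pemetrexed, untreated tumors and Group3 neurospheres (mmm, purple). P2ry12 is between 3.32 and 3.54 in untreated dka tumors and 6.61 and 6.76 in untreated mmm tumors, Clec10a is high in untreated dka tumors and 2 gemcitabine tumors, and Mrc1 is highest in 1 tumor given both drugs (7.82).

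The drug arms ask whether chemotherapy changed these cells in the mmm tumors. With limma, 0 of the 34 markers passed in either direction for pemetrexed plus gemcitabine, where 0.0526% of all genes rose and 0.0234% fell (0.076% in either direction), and 0 for gemcitabine or pemetrexed, where 0% of all genes did. At an unadjusted p under 0.05 stood 1, 1 and 0 markers for both drugs, gemcitabine and pemetrexed. Median differences over the 34 were -0.32 for both drugs, -0.26 for gemcitabine and -0.11 for pemetrexed, beside 0.03, 0.05 and 0.05 over all genes. All 3 arms share the same 2 untreated tumors, whose replicate 5 had the higher value for 23 of 34 genes. The median half-width of the 95% intervals was 0.875 for both drugs and for gemcitabine and 0.959 for pemetrexed. Larger differences than that also missed the adjusted threshold, as Gpr34 and Clec10a below show.

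The group means of the 4 resident markers were lowest after both drugs, without passing the test. P2ry12 stood at 5.39, 6.07 and 5.41 after both drugs, 6.26, 4.57 and 7.67 after gemcitabine and 5.86 and 6.77 after pemetrexed, against 6.61 and 6.76 in untreated tumors. For P2ry12 every array given both drugs lay below both untreated arrays, but gemcitabine arrays lay on both sides. The difference after both drugs was -1.06 (95% interval -2.23 to 0.10, adjusted p = 0.665). Gpr34 stood at 5.90, 6.30 and 5.63 after both drugs, against 6.98 and 7.05, a difference of -1.07 (-1.90 to -0.24, adjusted p = 0.551), and was the marker with an unadjusted p under 0.05. Cx3cr1 (-0.95) and Tmem119 (-0.60) did not pass either. Tmem119 did not separate by array, with 4.28, 6.31 and 5.07 after both drugs, against 5.78 and 5.86 in untreated tumors. All arrays given both drugs lay below both untreated arrays for 3 of the 4 resident markers. Over all 34 markers they did so for 4, and lay above both for 1. The 3 gemcitabine arrays gave the same counts over the 34 markers, 4 below and 1 above, with 1 resident marker among the 4. How often arrays separate in this way over all genes was not tested, so these counts do not show a loss of resident microglia. After gemcitabine alone the 4 resident markers differed by -0.69 to -0.15 and after pemetrexed by -0.58 to -0.04.

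The 5 macrophage markers had differences of -0.50 to 0.45 after both drugs, -0.71 to 1.44 after gemcitabine and -0.82 to 0.68 after pemetrexed. Lyz2 stood at 10.16, 10.04 and 8.85 after both drugs, 9.88, 10.08 and 9.04 after gemcitabine and 10.50 and 9.80 after pemetrexed, against 8.88 and 10.08 in untreated tumors (differences 0.21, 0.19 and 0.68). Clec10a stood at 6.32, 6.30 and 4.19 after gemcitabine, against 4.30 and 4.01 in untreated tumors. Of the 3 gemcitabine arrays 2 were high and the third was at the untreated level, and the difference of 1.44 (95% interval 0.51 to 2.38) did not pass (adjusted p = 0.422). Without gemcitabine replicate 3 it passed at 2.15, and so did both drugs against gemcitabine at -2.31. Mrc1 stood at 7.82, 5.005 and 5.53 after both drugs, against 4.99 and 6.34. Among shared genes the C1q genes differed by -0.51 to -0.38 after both drugs, by -0.38 to -0.24 after gemcitabine and by -0.13 to -0.06 after pemetrexed.

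The arms were also set against each other. Both drugs against gemcitabine and both drugs against pemetrexed gave 0 of 34 markers in either direction, where 0% of all genes passed, with 3 and 2 markers at an unadjusted p under 0.05. The widest differences were -1.60 for Clec10a and 1.17 for Mrc1 against gemcitabine, and 1.27 for Mrc1 and -0.85 for Msr1 against pemetrexed.

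Arrays within the gemcitabine and combination arms were uneven, and within the drug arms the oligodendrocyte markers varied with the resident markers. After gemcitabine, replicate 2 had the lowest value for 26 of 34 genes and replicate 3 the highest for 25. After both drugs, replicate 3 had the lowest for 26 and replicate 2 the highest for 25. The mean of the 4 resident markers was 5.47, 6.55 and 5.68 after both drugs, 6.46, 5.50 and 7.06 after gemcitabine and 6.13 and 6.78 after pemetrexed, against 6.81 and 6.83 in untreated tumors. The oligodendrocyte mean on the same arrays was 5.51, 8.04 and 6.99, then 6.66, 5.56 and 8.79, then 6.63 and 7.21, against 9.12 and 7.43 in untreated tumors, and 0 of its 5 markers passed in any arm. Within each drug arm the array with the lowest resident mean had the lowest oligodendrocyte mean, and the array with the highest had the highest. The 2 untreated tumors went the other way, although their resident means, 6.81 and 6.83, were close. The part of brain tissue in these differences was not tested.

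**Figure D5:**
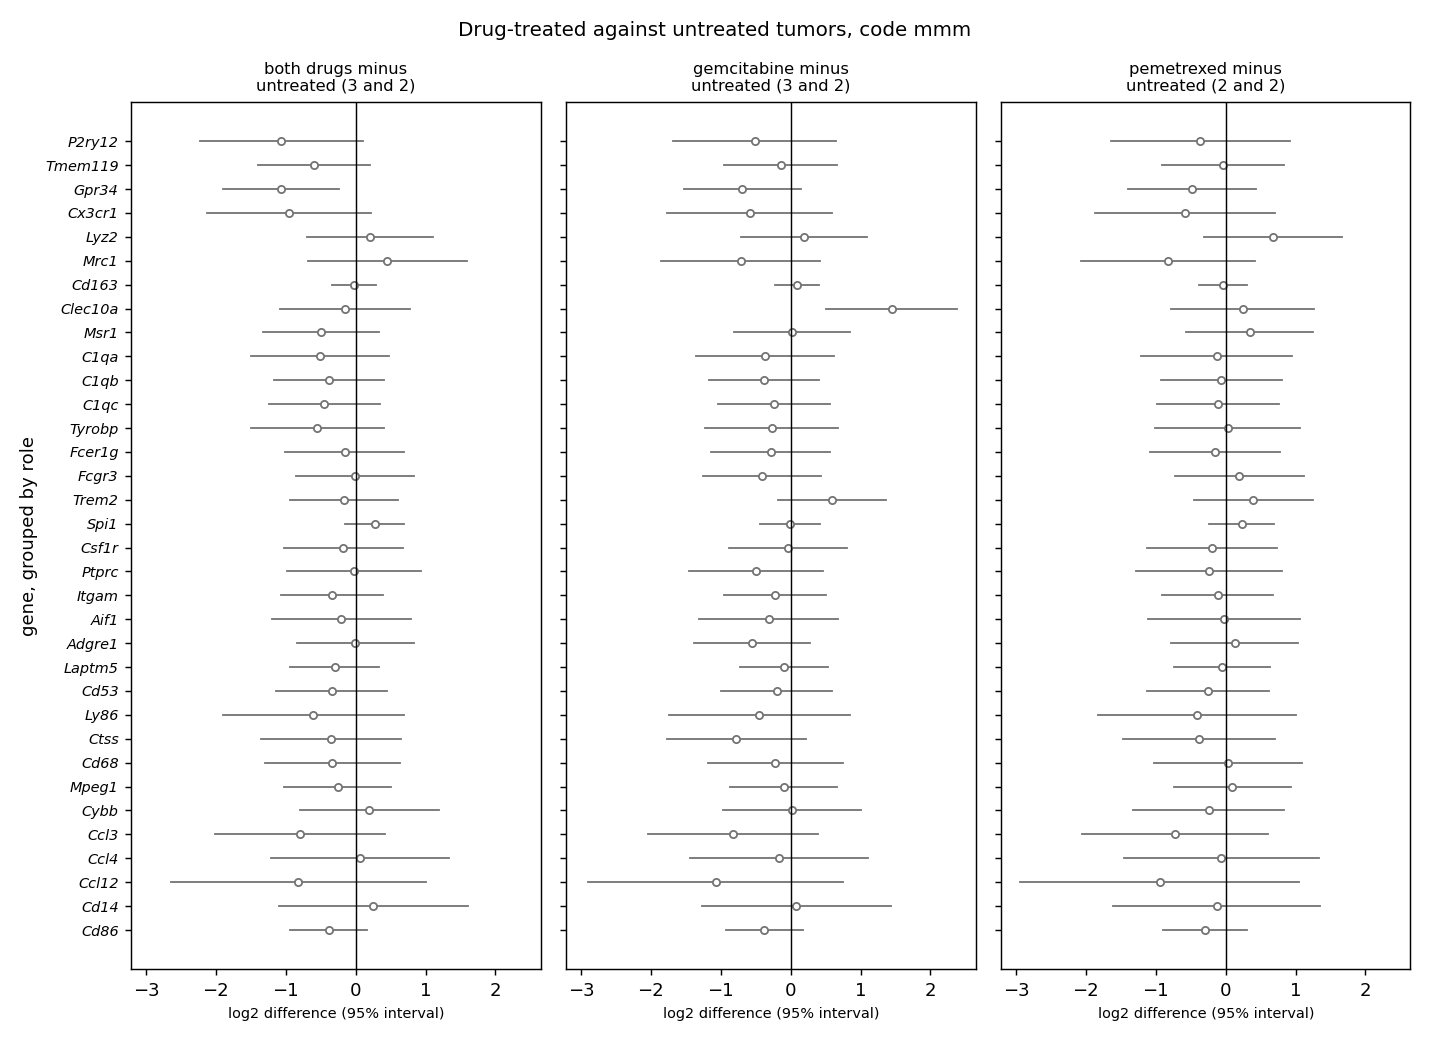
Log2 differences from untreated mmm tumors for each gene (points, with 95% intervals) after both drugs (left), gemcitabine (middle) and pemetrexed (right). All points are open because 0 of 34 genes passed in each arm, and most intervals cross 0, with Gpr34 (left) and Clec10a (middle) as exceptions.

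Further genes of the same cells were read from lists of related markers. Of 11 other microglia genes, 5 rose and 0 fell in mmm tumors against Group3 neurospheres, where 10.6% of all genes rose and 11.5% fell. The largest rises were in the Fc receptor-like gene Fcrls (3.56), the transcription factor Sall1 (2.17), the selectin ligand Selplg (1.68) and the prostaglandin synthase Hpgds (1.40). In dka tumors 1 rose, Rhob (1.77), and 2 fell, Sall1 (-2.11) and the integrin chain Itgb5 (-1.45). Over all genes 8.81% rose and 9.74% fell there, so the 1 that rose is near that share. Sall1 is also made by neural progenitors, and it stood at 6.92, 6.86 and 6.08 in the dka Group3 neurospheres. In secondary tumors 3 of the 11 rose and 3 fell, among them Fcrls (1.81), Sall1 (-2.28), Olfml3 (-1.62) and Itgb5 (-1.62). Over all genes 10.2% rose and 14.5% fell there. The difference between codes passed for Sall1 (4.28), Selplg (1.46) and Hpgds (1.42), 3 of the 11, where 9.17% of all genes passed. In Group3 against Trp53 Cdkn2c neurospheres 1 rose, Itgb5 (2.38), and 2 fell, Rhob (-3.15) and Fcrls (-1.99), where 13.4% of all genes rose and 9.22% fell.

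Of 15 other macrophage and monocyte genes, 7 rose and 1 fell in mmm tumors and 4 rose and 1 fell in dka tumors. Over all genes 10.6% rose and 11.5% fell in mmm tumors, and 8.81% rose and 9.74% fell in dka tumors. Mgl2 rose by 4.94 (mmm) and 5.33 (dka), the monocyte and endothelial antigen Ly6c1 by 3.65 and 2.76 and Plac8 by 2.61 and 2.26, and the matrix proteoglycan Vcan fell by 2.55 and 2.93. Ccr2, the chemokine receptor of inflammatory monocytes, ran only from 3.41 to 4.18 over all 26 arrays. Of 8 genes of disease-associated microglia, 4 rose and 0 fell in mmm tumors and 2 rose and 0 fell in dka tumors. Lgals3 (galectin 3) rose by 3.92 in mmm and 4.16 in dka tumors and the beta-glucan receptor Clec7a by 2.29 and 1.90. The cystatin Cst7 (2.25) and the integrin chain Itgax (0.86) rose in mmm tumors. All 8 differences were above 0 in mmm tumors, but only 5 in dka tumors. The lowest there was -1.36 for Cd9, which did not pass. Apoe stood at 10.77, 9.02 and 10.58 in dka tumors, against 10.54, 10.25 and 11.08 in Group3 neurospheres, and did not pass either. Lgals3 also stood at 8.39, 8.13 and 8.23 in untreated dka tumors, against 5.72, 5.03 and 5.96 in Trp53 Cdkn2c neurospheres (difference 2.68, adjusted p = 0.00601).

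Cytokines and regulators of activation were read from 10 genes. In dka tumors 3 of the 10 rose against Group3 neurospheres, where 8.81% of all genes rose: Il1b (3.64), Il6 (3.05) and Tnf (1.75). Il1b stood at 7.21, 7.67 and 7.28 in dka tumors, against 3.99, 3.61 and 3.67 in Group3 neurospheres. Il6 stood at 3.09, 6.91 and 8.45, so that dka tumor replicate 1 was at the neurosphere level (2.85, 3.29 and 3.16). In mmm tumors only the transcription factor Irf8 rose (2.07), where 10.6% of all genes rose. Il1b stood at 4.54 and 4.55 in mmm tumors, against 3.65, 3.58, 3.71 and 3.92 in Group3 neurospheres. The difference between codes passed for Tnf (-2.14, adjusted p = 0.0217) and Irf8 (1.43, adjusted p = 0.0365). It passed for 0 of the other 8, Il1b and Il6 among them, where 9.17% of all genes passed. In Trp53 Cdkn2c neurospheres Il1b stood at 7.05, 5.13 and 7.75, and in Group3 neurospheres Il1b fell by 2.89.

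Ligands and checks on phagocytes were read from 12 genes. Csf1, the growth factor of microglia, stood at 5.98, 7.34 and 7.28 in dka tumors, against 7.32, 7.38 and 7.50 in Group3 neurospheres, and passed as lower only in secondary tumors (5.50, 6.94 and 5.79, difference -1.32). The second ligand of its receptor, Il34, ran from 3.32 to 4.52 over all arrays. Sirpa, which receives the signal of CD47 on phagocytes and is also made by neurons, fell by 1.999 in dka tumors and rose by 2.28 in mmm tumors (difference between codes 4.28, adjusted p = 0.00559). Cd47 fell by 1.19 in dka tumors. The neuronal ligands Cd200 (3.16) and Cx3cl1 (2.64) and the anaphylatoxin receptor C3ar1 (2.21) rose in mmm tumors. The chemokine Ccl5 rose in dka (2.37) and mmm tumors (2.03).

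Other blood cells were looked for with their own markers. Of 9 lymphocyte markers, 0 changed in dka or mmm tumors against Group3 neurospheres, where 18.6% and 22.1% of all genes changed. In secondary tumors 1, Cd3d (0.52), rose, where 10.2% of all genes rose. The list mean ran from 3.64 to 4.08 over all arrays, under every array median. Of 9 neutrophil and mast cell markers, S100a8 (1.65), S100a9 (1.83) and Kit (1.66) rose in dka tumors and Kit (2.74) in mmm tumors. Over all genes 8.81% and 10.6% rose. Kit is also made outside blood cells. Their part in the marker differences was not tested.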

How the data were processed

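Log2 values were taken as deposited. The submitters' processing notes name RMA, with no version, and Partek 6.6, and per the labels RNA was extracted with Trizol, amplified with NuGEN Ovation Pico WTA V2 and labelled with NuGEN Encore Biotin. Of 45141 probe sets, 104 were controls, 28898 had 1 gene symbol, 551 several and 15588 none here, and the brightest per gene gave 17097 genes. Of the 34 measured markers 7 had more than 1 probe set.

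A linear model with a mean per group within each title code (9 means, 26 arrays) was fitted in limma 3.58.1 (R 4.3.3). Its moderated tests were adjusted by Benjamini-Hochberg over 17097 genes, with calls at 0.05, in 12 comparisons, and the procedure was tested on simulated data. Standard errors are moderated. Replicate numbers only name arrays. Groups of 2 to 4 arrays limit precision.

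The markers, lists and tests were chosen with earlier results of these data known. All markers are named, and of each other list up to 4 genes past 0.05 with the largest differences, or 2 where none passed. Mgl2, Ccr2, Csf1, Il34, Atoh1, Barhl1, Cd9, Apoe and the genes of combination replicate 1 were singled out after their values were seen. Alternatives were the mean of a gene's probe sets, trended robust variances, quantile normalization, a filter on dim genes, a fit to the arrays of 1 code, and leaving out each array.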

Additional observations from a re-analysis of the deposited data

Results flagged for a closer look

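The tumor minus Group3 neurosphere difference depended on the title code, by limma's test of the mmm minus dka difference, for 18 of 34 markers. Among resident microglia markers it was larger under mmm for P2ry12 by 3.29, Gpr34 by 3.15 and Cx3cr1 by 2.43. Among complement and ITAM genes it was larger for C1qa by 2.20, C1qb by 1.74, C1qc by 1.76, Tyrobp by 1.98 and Fcgr3 by 2.03. Among lineage and phagocyte genes it was larger for Ly86 by 3.17, Aif1 by 2.83, Ctss by 2.75, Cd53 by 2.49, Adgre1 by 2.14, Mpeg1 by 2.06, Ptprc by 1.91 and Laptm5 by 1.30, and among activation genes for Cd86 by 1.22. Clec10a, the macrophage lectin, had a difference between codes of -2.86. The counts without single arrays stand beside the result above. A screen for an array far from its group, over 68 pairs of marker and group in the 2 groups with enough arrays (untreated tumors and Group3 neurospheres), found 0. It pooled both codes within a group, so a gap between codes widened the range and could hide a far array. The smaller groups, secondary and drug-treated tumors among them, were not screened.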

How the results depend on the processing

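Of 113 marker calls over the 12 comparisons, 0 reversed under any alternative. Quantile normalization kept 109, trended robust variances 110 and the mean of a gene's probe sets 110. Sizes moved more than calls for some genes with more than 1 probe set. In mmm tumors against Group3 neurospheres the smallest differences over the alternatives were 2.48 for Cd53, 1.91 for Cx3cr1 and 0.83 for Msr1. Between the neurospheres the Trem2 difference shrank to as little as -0.755. A fit to the arrays of 1 code kept 91 of 95, and gave 2 markers higher in dka tumors than in Trp53 Cdkn2c neurospheres, Mrc1 being added. Against Group3 neurospheres the same fit added Csf1r (0.93) and Mrc1 (0.72) as higher in dka tumors and Mrc1 (1.19) in secondary tumors. Between the neurospheres it added Clec10a (-1.02) and Laptm5 (-0.61) as lower in Group3. The filter on dim genes left 10285 genes and 26 markers, without Clec10a or Cd163, and the counts of 1 that rest on them became 0 for Group3 over Trp53 Cdkn2c neurospheres (higher), tumors over Trp53 Cdkn2c neurospheres (higher), secondary against untreated tumors (lower) and secondary tumors against Group3 neurospheres (lower). Under this filter the 1 marker smaller under mmm was Ccl4 (-2.42) in place of Clec10a. The count of markers smaller under mmm was 2 with quantile normalization, Ccl4 being added. With each array left out in turn, counts ran from 15 to 16 lower and 0 to 1 higher for Group3 against Trp53 Cdkn2c neurospheres, 18 to 19 higher for dka tumors, 20 to 25 higher for secondary tumors and 25 to 30 higher for mmm tumors against Group3 neurospheres, 0 to 1 higher for secondary against untreated tumors, 0 to 1 higher for gemcitabine, 0 to 1 lower for both drugs against gemcitabine, and 2 to 15 larger and 1 to 2 smaller for the difference between codes. The causes of the other changes were not tested. No paired analysis was possible because the labels give no replicate numbers.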

Other observations

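Replicate 1 of the tumors given both drugs stood apart in a few macrophage genes. Mrc1 stood at 7.82 there, against 3.24 to 6.34 on the other 25 arrays. Levels on this array were 7.21 for F13a1, a transglutaminase of tissue macrophages, 6.44 for Arg1, arginase of alternatively activated macrophages, and 7.82 for Cd74, the invariant chain of antigen presentation. The other tumors given both drugs had F13a1 at 5.15 and 3.63, Arg1 at 4.56 and 3.83 and Cd74 at 5.81 and 5.41. Other genes of border or alternatively activated macrophages did not stand apart there: Stab1 was 4.27, against 4.80 and 4.61, Lyve1 4.14, against 4.25 and 3.83, Chil3 4.08, against 4.23 and 3.26, Retnla 3.77, against 3.93 and 3.51, and Cd163 3.82, against 3.49 and 3.71. The resident microglia gene Tmem119 was 4.28 on the same array, against 6.31 and 5.07. These genes were picked after their values were seen, and no test was made.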
